A study of Homo sapiens with 36 samples.

Results

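The phagocyte NADPH oxidase is described here through 4 of its subunit genes, NCF1, NCF4, CYBA and CYBB, chosen by gene symbol. All 4 of 4 were measured, by 6 of the 47293 probes on the array, and each passed the filter on dim probes. They are 4 of 15308 genes tested. NCF1, CYBA and CYBB have 1 probe each and NCF4 has 3, of which the brightest stood for the gene. The cells were NB4, an established human line of acute promyelocytic leukaemia in which the PML-RARA fusion is present. All-trans retinoic acid (ATRA) drives this line toward granulocyte-like cells, and atorvastatin is a statin, an inhibitor of the enzyme that makes mevalonate. Cultures were treated with both agents (combination), with ATRA, with atorvastatin or with neither agent (control), and taken at 8, 24 or 48 h. ATRA preceded the statin by 1 h. There are 12 groups of 3 arrays, and by the series' design the 3 arrays of a group come from 3 experiments on different days. The titles number the arrays, and arrays were assigned to experiments 1, 2 and 3 by the runs of 12 in these numbers. Doses are not given in the sources used here. NB4 is 1 cell line, so the values describe that line only.

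The oxidase makes superoxide by passing electrons from NADPH in the cytosol to oxygen inside the phagosome or outside the cell. Its membrane part, cytochrome b558, is a pair of proteins: gp91phox (NOX2, the product of CYBB) carries the electrons, and p22phox (the product of CYBA) stabilises it and docks the cytosolic subunits. In the cytosol p47phox (NCF1) organises the complex and p40phox (NCF4) binds phosphoinositides on the phagosome. Loss of CYBB, CYBA, NCF1 or NCF4 causes chronic granulomatous disease. Myeloid cells acquire the oxidase as they mature beyond the promyelocyte.

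In GRCh38.p14 NCF1 lies at chr7:74774011-74789315, NCF4 at chr22:36861006-36878015, CYBA at chr16:88643289-88651053 and CYBB at chrX:37780059-37813461. NCF1 has near-identical pseudogenes, NCF1B and NCF1C, so its probe may read more than 1 transcript. RefSeq promoters, 250 bases before to 50 bases after the annotated start, were matched for 3 of the 4 members. They are shown because 4 short words tied to myeloid or retinoid transcription factors were searched in them. Capitals mark GAGGAA read on the opposite strand, TTCCTC, the core letters of sites for PU.1 (the product of SPI1).
NCF1, chr7:74773761-74774060, + strand: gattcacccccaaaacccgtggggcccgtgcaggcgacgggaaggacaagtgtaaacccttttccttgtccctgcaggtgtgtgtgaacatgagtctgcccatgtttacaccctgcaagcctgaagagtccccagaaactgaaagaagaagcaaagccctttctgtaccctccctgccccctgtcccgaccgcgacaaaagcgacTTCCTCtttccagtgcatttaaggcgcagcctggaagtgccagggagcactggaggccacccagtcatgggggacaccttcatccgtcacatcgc
CYBB, chrX:37779809-37780108, + strand: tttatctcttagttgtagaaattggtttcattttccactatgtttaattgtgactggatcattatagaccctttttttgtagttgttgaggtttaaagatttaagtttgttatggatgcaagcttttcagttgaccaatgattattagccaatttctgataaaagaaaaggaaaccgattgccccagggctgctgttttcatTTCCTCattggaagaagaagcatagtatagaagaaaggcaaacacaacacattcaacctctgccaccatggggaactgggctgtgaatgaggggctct
CYBA, chr16:88651004-88651303, - strand: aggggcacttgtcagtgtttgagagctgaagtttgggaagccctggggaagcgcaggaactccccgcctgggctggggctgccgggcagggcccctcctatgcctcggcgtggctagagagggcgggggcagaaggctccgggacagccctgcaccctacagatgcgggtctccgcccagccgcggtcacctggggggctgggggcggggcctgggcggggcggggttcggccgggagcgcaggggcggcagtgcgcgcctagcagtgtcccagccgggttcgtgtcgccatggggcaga

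The word lies 45 to 40 bases before the start in NCF1 and 48 to 43 bases before it in CYBB, and the CYBA window does not hold these letters on either strand. GAGGAA on either strand occurs in 27.9% of 35116 RefSeq promoters of the same length. CCAAT was found at 4 places in CYBB, on either strand, 1 of them directly after the marked word, and in neither other window (34.6% of all promoters hold it). GGTCA, a repeat unit of retinoid receptor sites, was found at 1 place each in CYBA and CYBB (37.4% of promoters). TTGCAA was in none of the windows (5.5% of promoters). These matches describe letters and were not tested against binding.

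Signals are given as log2 values after background correction and quantile normalisation. On that scale the 50th percentile of all probe values was 6.34 and the 90th 8.59. Raw median signal ran from 78.5 to 185.4 across the 36 arrays. In experiment 1 it was 152.2 to 185.4 on control and atorvastatin arrays and 101.8 to 118.2 on ATRA and combination arrays. In experiments 2 and 3 it was 78.5 to 100.8. The raw median of experiment 1 thus differed with ATRA, and its part in the changes with ATRA was not tested separately. Arrays of a group correlated at r = 0.965 to 0.993 over the 15308 genes. A gene was called changed where limma's adjusted p was under 0.05 over all 15308 genes in that comparison. The median change over all genes was near 0 in every comparison, which quantile normalisation largely brings about. A change is a log2 difference ± SE with 3 arrays per group. An effect on fewer cells and less RNA per cell cannot be told apart in such bulk samples.

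In experiment 1, the 24 h libraries with the labels ATRA and atorvastatin went against those labels. As deviations from the 24 h control mean over 15308 genes, the library labelled ATRA had r = 0.17 with the mean of the other 2 ATRA libraries and 0.43 with that of the other 2 atorvastatin libraries. The library labelled atorvastatin had r = 0.73 with the other ATRA libraries and 0.08 with the other atorvastatin libraries. All 4 oxidase genes show it: NCF1 read 7.88 under the ATRA label and 13.66 under the atorvastatin label, and CYBA read 11.70 and 12.20. The raw median signal of the 2 libraries did not go against the labels. It was 118.2 under the ATRA label and 178.9 under the atorvastatin label, and experiment 1 read higher without ATRA. The labels were kept. Where a result of the 4 members is also given without these 2 doubted libraries, on 34 arrays, the text says so. Values of the other NCF4 probes, the markers and the gene lists include all arrays. The pair also widened the error of NCF1 in every group, because the spread is shared by all groups: the SE of its changes was 1.02 with all arrays and 0.17 without the pair at 8 and 48 h.

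**Figure D1:**
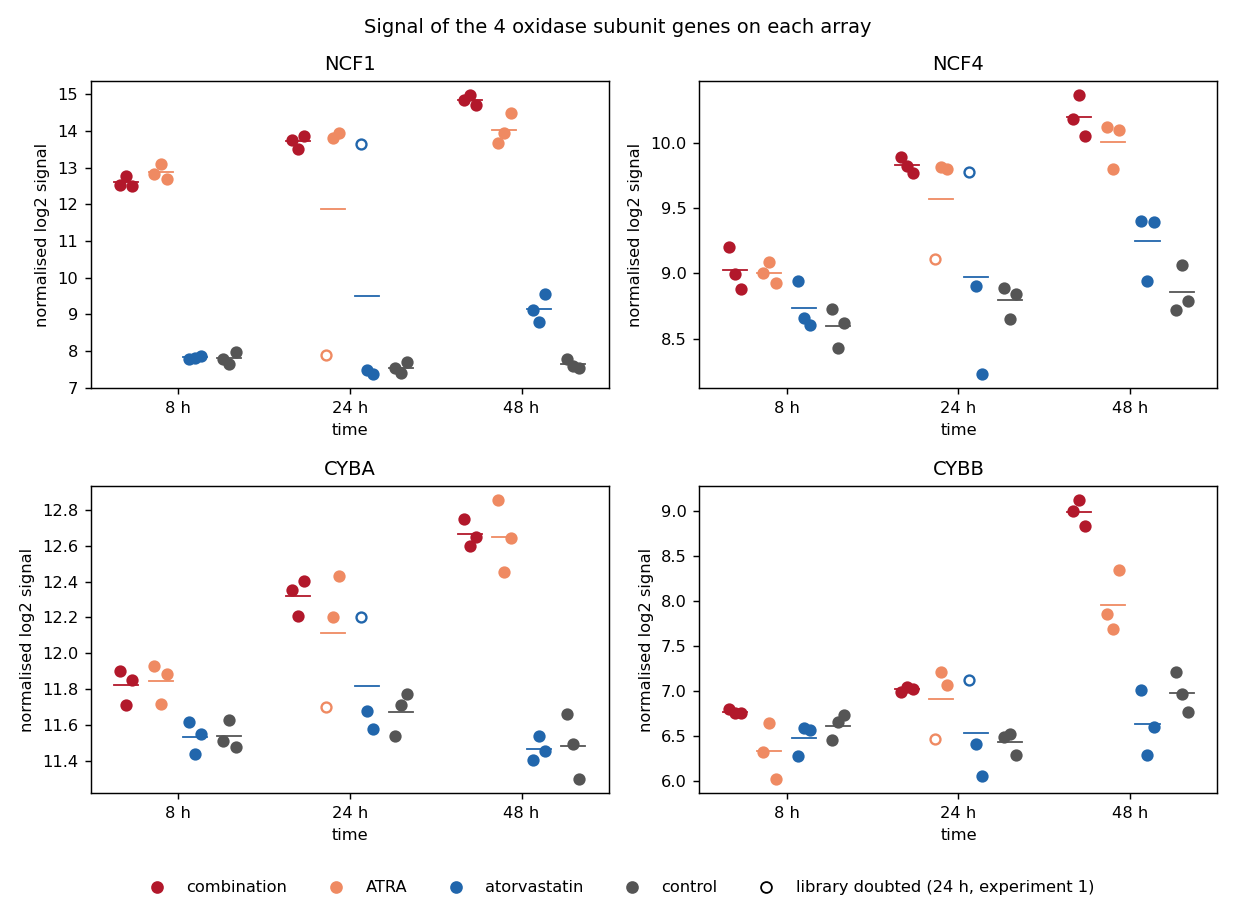
Normalised log2 signal (y axis) of NCF1, NCF4, CYBA and CYBB on each array, by time (x axis) and treatment (colour), with a line at each group mean of 3 arrays and hollow points for the 2 doubted libraries. NCF1 is high at 8 h in both ATRA-containing groups, NCF4 and CYBA rise more gradually, and CYBB is dim until 48 h, when the combination arrays lie between 8.83 and 9.12.

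NCF1, the organiser subunit p47phox, was the first of the 4 to change and changed by the most. After 8 h its signal was 12.53, 12.78 and 12.50 with the combination, 12.82, 13.11 and 12.71 with ATRA, 7.79, 7.82 and 7.88 with atorvastatin, and 7.80, 7.64 and 7.97 in control cells. Every array with ATRA lay above every array without it, and the atorvastatin and control arrays overlapped. Of all genes, 8.77% had every combination array above every control array at 8 h, and 9.45% had every ATRA array above it. NCF1 was the 1 member called at 8 h in the combination against control (4.80 ± 1.02, adjusted p = 0.00768) and in ATRA against control (5.08 ± 1.02, adjusted p = 0.00447). Of all genes, 0.666% were called higher in the first comparison and 0.849% in the second. The combination differed from ATRA by -0.28 (95% interval -2.34 to 1.79, or -0.62 to 0.06 without the doubted pair). The call for ATRA was lost without experiment 2 (4.88, adjusted p = 0.382) and without experiment 3 (5.25, adjusted p = 0.11), both of which keep the doubted pair, and had an adjusted p of 1.43e-21 without the pair. The call for the combination was also lost without experiment 2 (4.63, adjusted p = 0.413), without experiment 3 (4.93, adjusted p = 0.164) and without combination replicate 2 at 8 h (4.71, adjusted p = 0.0539).

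At 24 h NCF1 stood at 13.77, 13.52 and 13.87 with the combination. The ATRA libraries read 7.88 (the doubted one), 13.81 and 13.95, the atorvastatin libraries 13.66 (the doubted one), 7.49 and 7.37, and the control libraries 7.53, 7.41 and 7.70. Leaving out the doubted libraries, all ATRA-containing arrays again lay far above the rest, and the atorvastatin and control arrays overlapped. At 24 h such a separation from control was found for 12.8% of all genes with the combination and, without the doubted pair, for 14.7% with ATRA. NCF1 rose by 6.17 ± 1.02 with the combination (adjusted p = 0.000121) and by 4.34 ± 1.02 with ATRA (adjusted p = 0.0379, and 6.33 ± 0.19 without the pair). With ATRA at 24 h that call was lost without any 1 control array or either of the other ATRA arrays, with adjusted p between 0.102 and 0.485 and the change between 3.30 and 4.41, and without experiment 2 or 3 (3.30 and 3.38, adjusted p = 0.999 and 0.66).

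By 48 h NCF1 read 14.85, 14.98 and 14.71 with the combination, 13.67, 13.95 and 14.48 with ATRA, 9.11, 8.78 and 9.55 with atorvastatin, and 7.78, 7.60 and 7.54 in control cells. The 4 groups did not overlap and ran in that order. Separation upward from control was found for 14.3% of all genes with the combination, 10% with ATRA and 6.47% with atorvastatin, and for 9.89% between the combination and ATRA. Against control the rise was 7.21 ± 1.02 with the combination (148.2-fold, adjusted p = 1.4e-06) and 6.40 ± 1.02 with ATRA (84.4-fold, adjusted p = 3.95e-05). At its highest NCF1 reached the percentile 99.99 of all probes of its array. Atorvastatin alone gave 1.51 ± 1.02 (2.85-fold, adjusted p = 0.631), which did not pass with all arrays. The value was the same without the doubted pair, with an SE of 0.17 and an adjusted p of 2.57e-07. The combination exceeded ATRA by 0.81 ± 1.02 (adjusted p = 0.811, and 0.00113 without the pair). The effects of atorvastatin on NCF1 with and without ATRA did not pass a test of their difference (interaction -0.70, 95% interval -3.62 to 2.22, adjusted p = 0.961). Without the pair the interval, -1.18 to -0.22, held only negative values. The limma p was then 0.0056 unadjusted and 0.212 adjusted over all genes, so a smaller effect with ATRA is left undecided. Within experiments 1, 2 and 3 the atorvastatin array exceeded its control by 1.34, 1.19 and 2.01, and the combination array exceeded its ATRA array by 1.17, 1.03 and 0.23.

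NCF4, which encodes the phosphoinositide-binding subunit p40phox, rose later and by less. Its signal at 8 h was 9.21, 8.99 and 8.88 with the combination, 9.00, 9.09 and 8.93 with ATRA, 8.94, 8.65 and 8.60 with atorvastatin, and 8.73, 8.43 and 8.62 in control cells. The ATRA-containing arrays lay above the control arrays, as they did for 8.77% (combination) and 9.45% (ATRA) of all genes. The differences were 0.43 ± 0.22 with the combination and 0.41 ± 0.22 with ATRA, neither of which passed (adjusted p = 0.543 and 0.574). At 24 h it read 9.89, 9.82 and 9.77 with the combination, against 8.89, 8.65 and 8.84 in control cells. These arrays did not overlap, as for 12.8% of all genes. That rise of 1.03 ± 0.22 passed (adjusted p = 0.00192, and 0.142 without experiment 2). The ATRA libraries read 9.11 (the doubted one), 9.81 and 9.80, with a change of 0.78 ± 0.22 (adjusted p = 0.099). Without the doubted pair that change was 1.01 ± 0.17 and passed (adjusted p = 9.02e-05).

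At 48 h NCF4 reached 10.19, 10.37 and 10.05 with the combination, 10.12, 9.80 and 10.10 with ATRA, 9.40, 8.95 and 9.40 with atorvastatin, and 8.72, 9.07 and 8.79 in control cells. The groups with ATRA overlapped each other and lay above control, as for 14.3% (combination) and 10% (ATRA) of all genes. Atorvastatin overlapped control. The rise over control was 1.34 ± 0.22 with the combination (adjusted p = 1.54e-05) and 1.15 ± 0.22 with ATRA (adjusted p = 0.000436). Adding atorvastatin changed NCF4 by 0.20 with ATRA present (95% interval -0.25 to 0.64) and by 0.39 without it (-0.06 to 0.83), and neither passed.

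The probes of NCF4 did not all move alike. By the array maker's naming, the probe used is specific to 1 isoform, another reads all isoforms and the third is specific to the other isoform. The all-isoform probe rose by 1.22 ± 0.20 with the combination (adjusted p = 1.27e-05) and by 0.76 ± 0.20 with ATRA (adjusted p = 0.00976) at 48 h. The probe of the other isoform stayed between 5.78 and 6.52 on all 36 arrays, near background, and its changes of 0.34 ± 0.15 with the combination and 0.33 ± 0.15 with ATRA did not pass (adjusted p = 0.119 and 0.206). The rise of NCF4 is thus a result of 2 of its 3 probes.

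**Figure D2:**
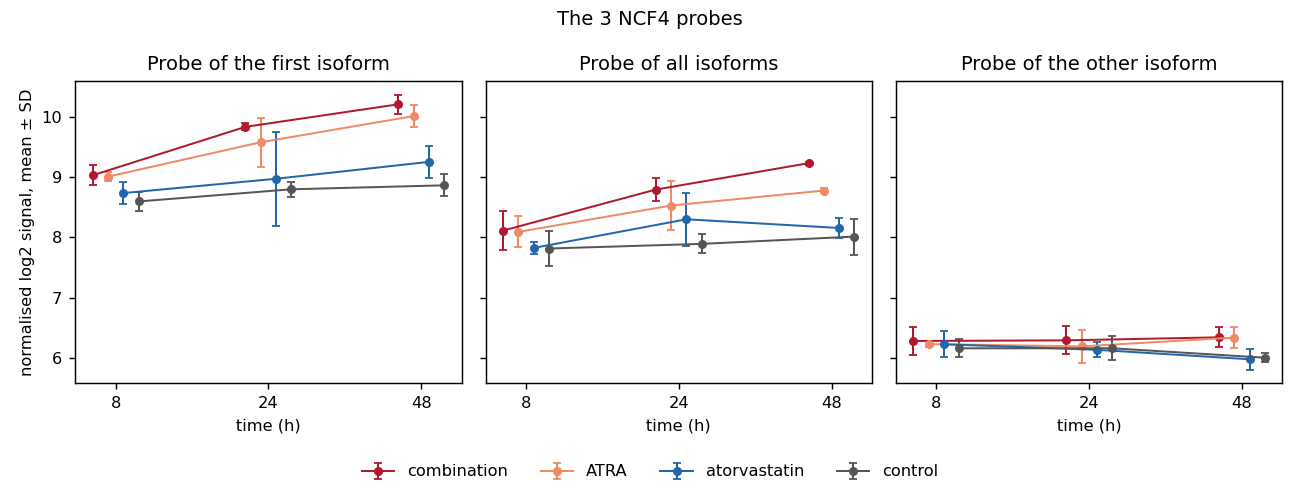
Normalised log2 signal (mean ± SD of 3 arrays, y axis) of the 3 NCF4 probes by time in hours (x axis, evenly spaced) and treatment (colour), all arrays. The first and second probes rise in both groups with ATRA, and the third stays near background; the wide bars at 24 h come with the 2 doubted libraries.

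CYBA, which encodes p22phox, the partner that stabilises NOX2, was bright in untreated cells and rose in small steps. At 8 h it read 11.90, 11.71 and 11.85 with the combination, 11.93, 11.72 and 11.88 with ATRA, 11.62, 11.44 and 11.55 with atorvastatin, and 11.51, 11.63 and 11.48 in control cells. Arrays with ATRA lay above control, again as for 8.77% and 9.45% of all genes, by 0.28 ± 0.15 with the combination and 0.30 ± 0.15 with ATRA, and neither difference passed (adjusted p = 0.582 and 0.516). At 24 h the combination arrays, at 12.35, 12.21 and 12.40, lay above the control arrays at 11.54, 11.71 and 11.77, as for 12.8% of all genes. The rise was 0.65 ± 0.15 (adjusted p = 0.00488, but 0.0981 without experiment 2 and 0.0736 without experiment 3). The ATRA libraries read 11.70 (the doubted one), 12.20 and 12.43, and the change of 0.44 ± 0.15 did not pass (adjusted p = 0.212). It was 0.65 ± 0.13 without the doubted pair (adjusted p = 0.00147).

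At 48 h CYBA stood at 12.75, 12.60 and 12.65 with the combination, 12.86, 12.45 and 12.64 with ATRA, 11.41, 11.54 and 11.45 with atorvastatin, and 11.66, 11.49 and 11.30 in control cells. All combination and ATRA arrays lay above all control arrays, as they did for 14.3% (combination) and 10% (ATRA) of all genes. The combination overlapped ATRA, and atorvastatin overlapped control. The rise was 1.18 ± 0.15 with the combination (adjusted p = 2.45e-07) and 1.17 ± 0.15 with ATRA (adjusted p = 2.28e-06). No effect of atorvastatin was detected: 0.02 with ATRA present (95% interval -0.29 to 0.32) and -0.02 without it (-0.32 to 0.29).

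CYBB, the gene of the catalytic subunit gp91phox, was, with all arrays, the last of the 4 to be called higher with the combination, and the only member for which the effects of atorvastatin with and without ATRA passed a test of their difference. It was dim: at 8 h it read 6.80, 6.76 and 6.75 with the combination, 6.33, 6.65 and 6.02 with ATRA, 6.28, 6.60 and 6.57 with atorvastatin, and 6.46, 6.65 and 6.73 in control cells. These values lie close to the array median of 6.34, where differences are compressed, and no comparison with control passed at 8 h. At 24 h it read 6.99, 7.04 and 7.03 with the combination and 6.47 (the doubted library), 7.21 and 7.07 with ATRA. The atorvastatin libraries read 7.12 (the doubted one), 6.42 and 6.06, and the control libraries 6.49, 6.53 and 6.29. The combination lay above control by 0.58 ± 0.21 (adjusted p = 0.107, and 0.0253 without the doubted pair), and ATRA by 0.48 ± 0.21 (adjusted p = 0.442). Without the pair the difference for ATRA was 0.70 ± 0.19 (adjusted p = 0.0228).

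Between 24 and 48 h CYBB rose by 1.97 ± 0.21 in the combination (adjusted p = 5e-08) and by 1.05 ± 0.21 in ATRA (adjusted p = 0.0068). The second of these calls was lost without experiment 1, 2 or 3 (adjusted p = 0.0613, 0.0609 and 0.15), without the doubted ATRA library (0.134) and without ATRA replicate 3 at 48 h (0.0901). Without both doubted libraries it passed (0.82 ± 0.19, adjusted p = 0.0295). At 48 h it read 9.00, 9.12 and 8.83 with the combination, 7.85, 7.69 and 8.34 with ATRA, 7.02, 6.30 and 6.60 with atorvastatin, and 7.21, 6.97 and 6.76 in control cells. All combination arrays lay above all ATRA arrays, as for 9.89% of all genes. Both groups lay above control, as for 14.3% (combination) and 10% (ATRA) of all genes, and atorvastatin overlapped control. The rise over control was 2.0 ± 0.21 with the combination (4.01-fold, adjusted p = 5.52e-09) and 0.98 ± 0.21 with ATRA (1.97-fold, adjusted p = 0.00165, and 0.144 without experiment 3).

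Adding atorvastatin to ATRA raised CYBB by 1.02 ± 0.21 at 48 h (95% interval 0.60 to 1.45, adjusted p = 0.0014), whereas atorvastatin alone gave -0.34 ± 0.21 (-0.77 to 0.09, adjusted p = 0.584). The difference between these 2 effects was 1.36 ± 0.30 and passed (adjusted p = 0.0164, and 0.000976 without the doubted pair). It was called for 0.451% of all genes in the higher direction, and CYBB was the only member called. Within experiments 1, 2 and 3 it was 1.34, 2.11 and 0.65. Of the groups compared, atorvastatin read 6.30 to 7.02 and control 6.76 to 7.21, near the array median of 6.34, where differences are compressed. The part of this compression in the difference was not tested. The call depended on single arrays: its adjusted p was 0.652 without experiment 2 (0.99), 0.0585 without control replicate 1, 0.0695 and 0.0744 without ATRA replicate 1 or 2, 0.0679 without atorvastatin replicate 2, and 0.0602 without combination replicate 2, with the difference between 1.19 and 1.31 in these 5 single-array cases. The effect of atorvastatin on top of ATRA was also lost without experiment 2 (0.82, adjusted p = 0.182).

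Some markers of other blood cells were also higher with the combination at 48 h. Of 8 monocyte and macrophage markers 6 were measured, and their mean signal at 48 h ran from 7.40 to 7.44 over the combination arrays, 6.89 to 7.03 over ATRA, 7.14 to 7.28 over atorvastatin and 6.71 to 6.81 over control. The combination was highest both for this mean and for CYBB, while atorvastatin lay above ATRA for the mean and below it for CYBB. In ATRA the mean was 6.94 at 48 h, against 7.22 at 24 h (the doubted library included), while CYBB rose. Only FCN1 and CSF1R of the 6 were called against control with the combination. FCN1 (ficolin 1) was higher in the combination than in ATRA by 1.83 ± 0.15 and with atorvastatin than in control by 1.00 ± 0.15, and CSF1R, the macrophage colony-stimulating factor receptor, was higher in the combination than in ATRA by 0.96 ± 0.20. CD14 stayed near background, at a mean of 6.12 with the combination, 6.10 with ATRA, 6.29 with atorvastatin and 5.94 in control at 48 h, and MSR1, C1QA and C1QB were not called in any of the comparisons of these 4 groups with control or with ATRA. Lymphoid markers, 5 of 8 measured, averaged 7.91 ± 0.07 with the combination, 7.63 ± 0.08 with ATRA, 7.33 ± 0.02 with atorvastatin and 7.26 ± 0.14 in control at 48 h (SD, n = 3), highest with the combination and next with ATRA, as CYBB was. CD79A, a chain of the B cell receptor complex, rose by 2.36 ± 0.40 with the combination and 2.22 ± 0.40 with ATRA. CD22, a B cell lectin, rose by 1.77 ± 0.15 and 0.83 ± 0.15, whereas CD3D, a chain of the T cell receptor complex, fell by 0.40 and 0.85. MS4A1 (CD20) and LCK, a kinase of T cells, stood at 6.24 and 6.32 with the combination, near background, and were not called. Of 7 measured epithelial and stromal markers, PECAM1, an adhesion molecule of endothelium that leukocytes also carry, rose by 1.74 ± 0.16 with the combination and 0.65 ± 0.16 with ATRA. The part of these markers in the result for CYBB was not tested. Promyelocyte markers, 6 of 7 measured, averaged 10.29 ± 0.14 with the combination, 10.83 ± 0.20 with ATRA, 11.40 ± 0.11 with atorvastatin and 11.94 ± 0.03 in control at 48 h (SD, n = 3). CTSG, a granule protease gene of promyelocytes, changed by -4.45 with the combination and by -3.59 with ATRA. Erythroid markers had mean signals between 6.16 and 6.46 over all 36 arrays.

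**Figure D3:**
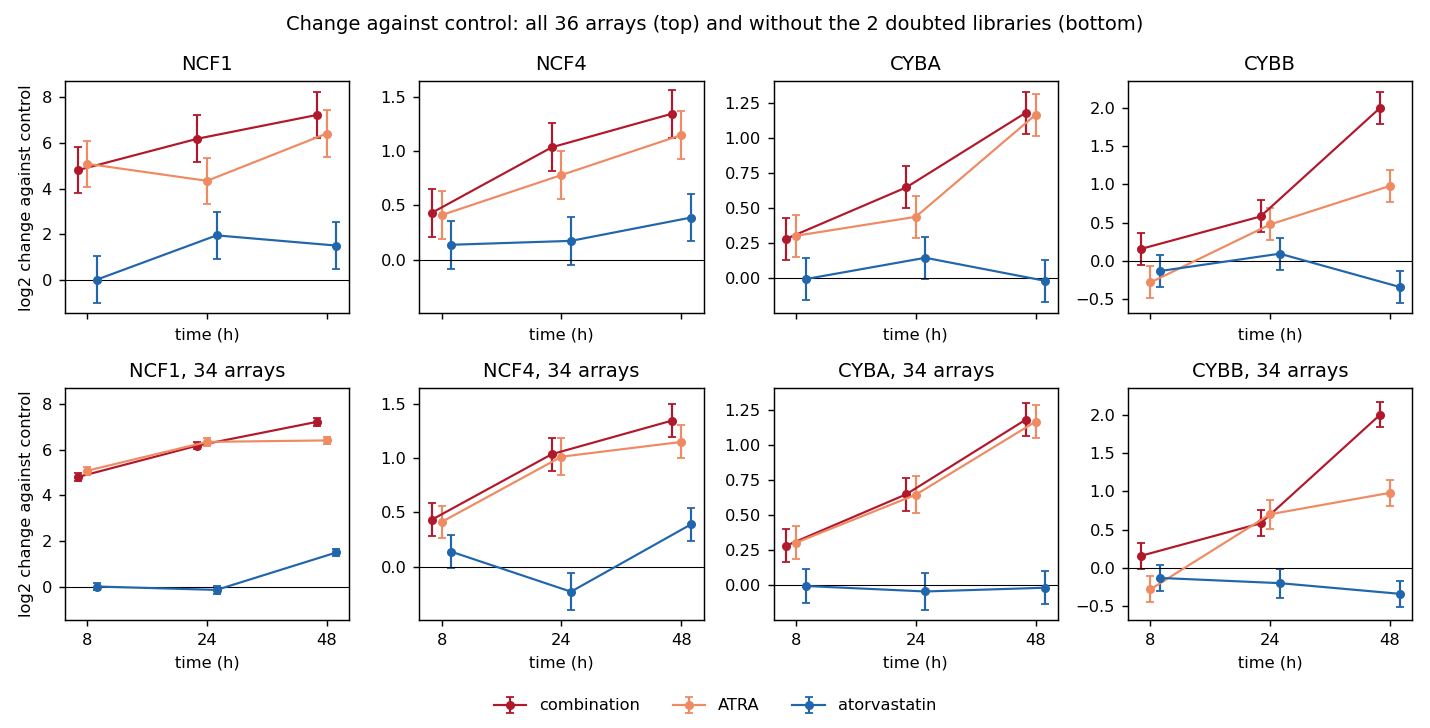
Log2 change against control (± SE, y axis) at 8, 24 and 48 h (x axis, evenly spaced) for each member and treatment, with all 36 arrays (top) and without the 2 doubted libraries (bottom). Without the pair, NCF1 is already up by 5.08 with ATRA at 8 h, while CYBB with the combination reaches 2.0 at 48 h after 0.58 at 24 h.

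The order of induction was read as the share of the 48 h log2 change reached earlier. By that share NCF1 led at 8 h with either treatment, and CYBB trailed at 24 h with the combination but not with ATRA. With ATRA, 79.4% of the 48 h change of NCF1 was present at 8 h, against 35.9% for NCF4 and 26.1% for CYBA, and CYBB lay below control by 0.28 at that time. With the combination the shares at 8 h were 66.6% for NCF1, 32.3% for NCF4, 24.0% for CYBA and 7.76% for CYBB. At 24 h the combination had reached 85.6% for NCF1, 77.1% for NCF4, 54.9% for CYBA and 29.0% for CYBB, in the same order. For ATRA at 24 h, without the doubted pair, the shares were 99.0%, 88.2%, 55.4% and 71.4%, so CYBA trailed, as it did with all arrays (37.6%, against 48.6% for CYBB). Each share divides 2 fitted log2 changes from the same fit and is given without a test. The order depends on the log2 scale. As folds over control with the combination, NCF1 stood at 27.9, 72.1 and 148.2 at 8, 24 and 48 h, and NCF4 at 1.35, 2.05 and 2.54. On that scale NCF1 would not lead NCF4 by share with the combination. CYBB is close to background, and its early changes may be compressed.

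In counts of members called higher against control, the combination had 1, 3 and 4 of 4 at 8, 24 and 48 h, and ATRA had 1, 1 and 4. The background share of genes called higher was 3.51% at 24 h and 9.67% at 48 h for the combination, and 0.457% and 4.06% for ATRA. With atorvastatin alone 0 of 4 were called by limma at each time, where 0.00653%, 0.0196% and 0.496% of all genes were called higher. At an unadjusted p under 0.05 it was also 0 of 4 at each time, beside 2.58%, 6.55% and 11.2% of all genes in either direction. Without the doubted pair the counts were 1, 4 and 4 for the combination, 1, 4 and 4 for ATRA and 0, 0 and 1 for atorvastatin, the last being NCF1. The background shares then were 1.42%, 4.38% and 10.1%, then 1.57%, 2.61% and 4.75%, and for atorvastatin at 48 h 1.12%. The combination against atorvastatin called 1, 2 and 4 members, with 0.621%, 1.22% and 7.07% of all genes called higher. The combination against ATRA called 0, 0 and 1, with 0.00653%, 0.0131% and 3.42% in the background, and 1, 0 and 1 at an unadjusted p under 0.05, beside 2.44%, 4.16% and 16.6% of all genes in either direction. No member was called lower in any of these comparisons, which share control, ATRA or combination arrays and so are not independent.

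**Figure D4:**
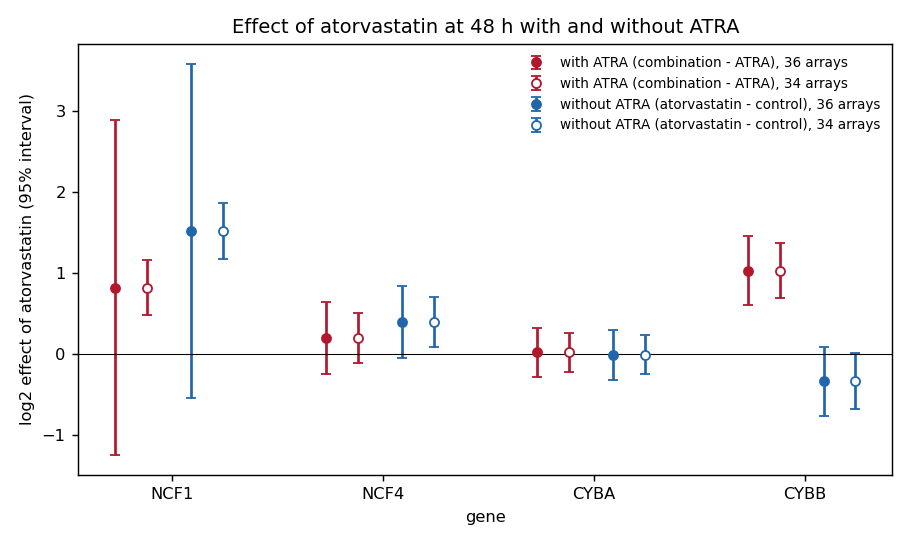
Effect of atorvastatin at 48 h on each member (log2, y axis, with 95% intervals) with ATRA present (combination minus ATRA, red) and without it (atorvastatin minus control, blue), with all 36 arrays (filled) and without the 2 doubted libraries (hollow). For CYBB the effect with ATRA is 1.02 and the effect without it -0.34, and for CYBA both lie within 0.02 of 0; the intervals of NCF1 narrow without the pair.

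Over time within a treatment, fewer steps passed. With all arrays, the step between 24 and 48 h called CYBB in the combination, where 3.47% of all genes were called higher, and CYBB in ATRA, where 0.621% were. Between 8 and 24 h no member was called in either with 0.601% and 0.105% of genes called higher. At an unadjusted p under 0.05 in limma, 2 members passed in each, beside 8.55% and 5.97% of all genes. Without the doubted pair the step to 24 h called NCF1, NCF4 and CYBA in the combination and NCF1, NCF4 and CYBB in ATRA (1.67% and 0.817% of genes). NCF1 then rose by 1.11 ± 0.17 in the combination and 1.00 ± 0.19 in ATRA over that step. Over the step to 48 h NCF1 rose again in the combination by 1.13 ± 0.17 and changed in ATRA by 0.16 (95% interval -0.22 to 0.54), while CYBB was called in both (4.3% and 0.425% of genes called higher). In atorvastatin NCF1 rose over that step by 1.72 ± 0.19 without the pair (adjusted p = 1.33e-06) and NCF4 by 0.68 ± 0.17 (adjusted p = 0.0469), when 0.536% of genes were called higher. Control cells had no member called at either step. With all arrays, 0% and 0.706% of all genes were called there in either direction. CYBB was higher in control cells at 48 than at 24 h by 0.54 ± 0.21, without passing (adjusted p = 0.287).

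Genes around the oxidase were counted in lists chosen by function. Of 10 partner genes 6 were measured, and at 48 h 3 were higher and 1 lower with the combination, and 1 higher and 1 lower with ATRA. The background for this and the following lists is that 9.67% of all genes were called higher and 10.7% lower with the combination, and 4.06% higher and 3.97% lower with ATRA. RAC2, the Rac GTPase of blood cells that activates the complex, rose by 2.20 ± 0.31 with the combination and 1.87 ± 0.31 with ATRA (adjusted p = 1.24e-06 and 6.84e-05), with mean signals of 11.28 and 10.95 against 9.08 in control. RAC1, the widely expressed Rac GTPase, gave 0.15 ± 0.15 and -0.09 ± 0.15 and did not pass. RAP1A, a GTPase that copurifies with cytochrome b558, and ARHGDIA, which holds Rac inactive in the cytosol, rose with the combination by 0.88 ± 0.20 and 0.64 ± 0.16. HVCN1, the proton channel that balances the charge the oxidase moves, fell by 1.34 with the combination and by 1.15 with ATRA. The median of the 6 partners was 0.46 with the combination and 0.23 with ATRA, beside -0.01 over all genes in both comparisons.

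Among kinases and exchange factors that act on the cytosolic subunits or on Rac, 5 of 11 measured genes were higher with the combination (9.67% of all genes) and 3 with ATRA (4.06%), and none was lower (median 0.35 and 0.28). PIK3CG, the leukocyte phosphoinositide 3-kinase gamma, rose by 1.83 ± 0.31 with the combination and 1.80 ± 0.31 with ATRA. PIK3CD rose by 0.945 ± 0.16 with the combination (adjusted p = 3.26e-05). PRKCD and PRKCB, protein kinases C that phosphorylate p47phox, rose by 1.28 ± 0.25 and 0.94 ± 0.19 with the combination and by 0.97 ± 0.25 and 0.76 ± 0.19 with ATRA. Of the enzymes that supply NADPH, 3 of 6 measured were higher in each comparison (9.67% and 4.06% of all genes), with none lower (median 0.69 and 0.55). PGD, of the pentose phosphate pathway, rose by 1.93 ± 0.24 and 1.80 ± 0.24, TKT, of the same pathway, by 1.19 ± 0.23 and 1.38 ± 0.23, and IDH1 by 1.16 ± 0.18 and 0.82 ± 0.18. Of 5 measured genes of the other NADPH oxidases none was called in either comparison (median -0.04 and -0.11).

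Of 11 measured genes that act on superoxide and peroxide removal, 3 were higher and 4 lower with the combination, where 9.67% and 10.7% of all genes were. With ATRA 2 were lower and none higher, where 3.97% and 4.06% of all genes were (median -0.16 and -0.24). Among the lower ones, SOD1, the cytosolic superoxide dismutase, fell by 0.79 with the combination, and PRDX6 and PRDX1, peroxiredoxins, fell by 0.82 and 0.75. CAT, catalase, fell by 0.57 with the combination and by 0.73 with ATRA. TXNIP, an inhibitor of thioredoxin, rose by 2.38 ± 0.28 with the combination. It works against peroxide removal, and the other 2 higher genes were SOD2, the mitochondrial superoxide dismutase (0.54 ± 0.14), and TXNRD1, thioredoxin reductase (0.35 ± 0.13).

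Of 9 measured transcription factors known to act on oxidase genes, 4 were higher and 1 lower in each of these comparisons (median 0.32 and 0.05). Of all genes, 9.67% were higher and 10.7% lower with the combination, and 4.06% and 3.97% with ATRA. SPI1, which encodes PU.1, rose by 1.66 ± 0.21 with the combination and 1.07 ± 0.21 with ATRA at 48 h, and the difference between the combination and ATRA, 0.59 ± 0.21, did not pass (adjusted p = 0.0854). CEBPE, a factor of late granulocyte maturation, rose by 2.82 ± 0.42 and 2.97 ± 0.42, IRF1 by 2.98 ± 0.47 and 2.50 ± 0.47, and CEBPB by 1.55 ± 0.29 and 1.35 ± 0.29. CEBPD fell by 1.03 with the combination and by 0.64 with ATRA. At 8 h with ATRA, CEBPB stood 2.16 ± 0.29 higher, IRF1 1.99 ± 0.47 and CEBPE 1.58 ± 0.42 (adjusted p = 3.98e-05, 0.0193 and 0.0442). SPI1 gave 0.18 ± 0.21 and did not pass. Of all genes, 0.849% were called higher in that comparison. These 8 h values were added after they were seen, and a relation of the factors to NCF1 was not tested.

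**Figure D5:**
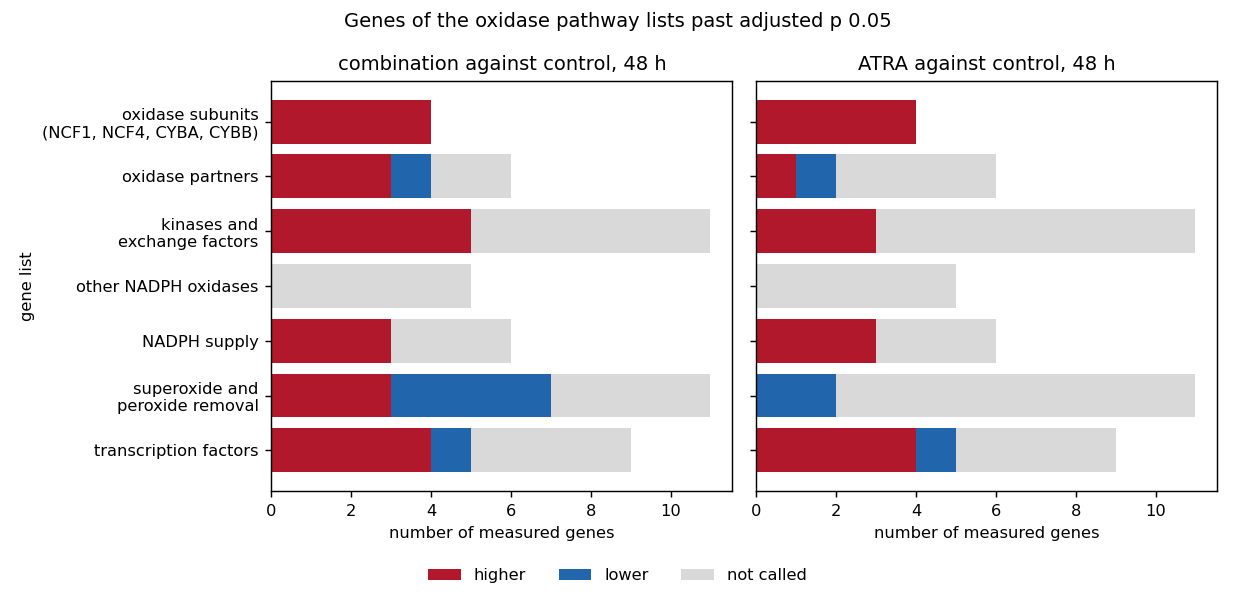
Number of measured genes (x axis) called higher, called lower or not called in each list (y axis) at 48 h, for the combination (left) and ATRA (right) against control, all 36 arrays. The 4 oxidase subunits are all higher in both, the other NADPH oxidases have no call, and superoxide and peroxide removal has 3 higher and 4 lower with the combination.

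The genes whose signal followed each member most closely were found by Pearson's r over the 12 group means among 1476 genes whose means span at least 1 log2 unit. For NCF1 they were DRAM1 (r = 0.995), CEP128 (0.992) and NINJ1 (0.990), and for NCF4 ORAI3 (0.976), SLC44A1 (0.976) and S100P (0.973). For CYBA they were PADI4 (0.989), SUSD3 (0.986) and PGD (0.982), and for CYBB RGS1 (0.977), SHFL (0.968) and SPP1 (0.965). Among the members, r was 0.923 between NCF4 and CYBA and 0.638 between NCF1 and CYBB, the highest and the lowest of the 6 pairs. These values describe 12 means that share arrays, normalisation and treatments, and carry no test. Without the doubted pair DRAM1, ORAI3, PADI4 and RGS1 remained first.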

How the data were processed

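Total RNA of 36 NB4 cultures was hybridised to Illumina Sentrix Human-6 BeadChips. Per the labels, the authors' probe averages come from BeadStudio 1.3.1.5 with no background subtracted. The deposited values of each array are linear intensity, before any normalisation between arrays. The authors' own table holds log2 values, used as an alternative only: all 36 columns matched their own array best, their medians ran from 6.68 to 6.69, and the values are not centred. Their exact normalisation is not given in the sources used here.

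Background was corrected by normexp from the signals themselves (offset 50), followed by quantile normalisation, in limma 3.58.1 under R 4.3.3. The filter kept 41648 of 47293 probes, those brighter than the array median on 3 or more arrays. A gene symbol was given for 18468 probes and none for 28825, and the brightest probe stood for each of 15308 genes, 1439 of which have several. A model of 12 group means (24 residual degrees of freedom, 22 without the doubted pair) gave 26 comparisons, each tested two-sided with limma and Benjamini-Hochberg adjustment over all genes at 0.05. Adjusted p values are from this test throughout. With 3 arrays per group, the number of arrays limits the precision.

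Groups come from the sample titles, and experiments from the runs of 12 title numbers. Named genes are the 4 members, up to 3 list genes with the largest rise and 3 with the largest fall among those called at 48 h with ATRA or the combination, RAC1, RAC2, SPI1 and CEBPE, and the 3 genes most like each member. PRKCB, CAT and CEBPB met the rule for list genes with ATRA only, and their values with the combination are given beside it. MPO and MS4A3 also met it and are not described. Other list genes (CD14, MSR1, C1QA, C1QB, MS4A1, LCK) and the 8 h values were added after their values were seen. The lists hold 110 genes, 83 of them measured. Members and lists were chosen with earlier results of these data known.

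The alternatives tried were median scaling, signals without background correction, the authors' log2 table and no filter on dim probes. An interquartile range of at least 0.2, the mean over a gene's probes, other NCF4 probes and only the arrays of the times compared were also tried. Further alternatives were no doubted pair, the experiment as a block, a random block of experiment by presence of ATRA, and each array or experiment left out. The fit was tested on simulated data.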

Additional observations from a re-analysis of the deposited data

Results flagged for a closer look

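The effect of atorvastatin on CYBB at 48 h differed with and without ATRA. It was 1.02 ± 0.21 with ATRA present and -0.34 ± 0.21 without it, and the test of the difference gave 1.36 ± 0.30 (log2, limma, adjusted p = 0.0164). In 11 alternatives the difference ran from 1.22 to 1.60 and the adjusted p from 0.000754 to 0.0489. These include leaving out the doubted pair and using only the 48 h arrays. With a single array or experiment left out the difference ran from 0.99 to 1.72 and the adjusted p from 0.00621 to 0.652. The CYBB signals without ATRA lie near the array median, where differences are compressed, and the part of this in the result was not tested. No cause was tested.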

How the results depend on the processing

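Counts of members called are given here by comparison. The share of all genes called was counted with all arrays and without the doubted pair only. In the other settings a count of members has no such share beside it. Without the pair 3.26% of all genes were called higher in the combination against atorvastatin at 24 h. In the combination against ATRA at 48 h it was 4.1%. For ATRA against control at 24 h the count was 1 with all arrays. It was 0 without background correction, with the authors' log2 values, with the mean over a gene's probes and with the arrays of that time alone, 3 with median scaling, and 4 without the doubted pair, with or without the replicate block. For the combination against atorvastatin at 24 h it was 2, and became 0 with the authors' values or that time alone, 1 with the mean over probes or with either other NCF4 probe, and 4 without the pair, with or without the block. The combination against control at 24 h had 3, and 1 with that time alone. At 48 h atorvastatin against control had 0, and 1 with that time alone or without the pair (with or without the block), and the combination against ATRA had 1, and 2 in the same settings. For 24 against 8 h, ATRA had 0, then 3 without the pair and 4 with the block as well, and the combination had 0, then 3 in both and 1 with the random block. For 48 against 24 h, atorvastatin had 0 and then 2 without the pair, and the combination 1 and then 2, each with or without the block, while ATRA had 1, and 2 with the random block. Leaving out 1 array or experiment gave 0 to 1 members at 8 h for the combination against control, ATRA against control and the combination against atorvastatin. At 24 h it gave 1 to 3, 0 to 3 and 0 to 4, and at 48 h 4 to 4, 3 to 4 and 3 to 4. At 48 h it gave 0 to 1 for atorvastatin against control, the combination against ATRA and the interaction. Over time it gave 0 to 1 for ATRA and 0 to 2 for the combination at 24 against 8 h, and 0 to 2 for ATRA, 0 to 1 for atorvastatin and 1 to 2 for the combination at 48 against 24 h. The other comparisons had 0 to 0. Among values called in at least 1 of the settings compared, the direction turned for NCF1 in ATRA at 24 against 8 h (-1.0 with all arrays, 1.0 without the pair, 0.98 with the block as well, and -2.12 to 1.0 with an array or experiment left out) and in atorvastatin at 48 against 24 h (-0.35, then 1.72, 1.74, and -1.62 to 1.74). The turned values all come from settings that leave out doubted libraries, and the cause of the other moves was not tested.

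The replicate block with all arrays changed no member count in the 26 comparisons. Deviations of arrays with the same experiment number correlated at a median r of 0.14, against -0.08 for different numbers, and over 0.1 in 126 of 198 pairs. Not every pair exceeded 0.1 and the titles do not state which arrays share an experiment, so the block was kept as an alternative. CYBB and the third NCF4 probe lie near background, which limits how small a change can be seen.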
